A study of Mus musculus with 4 samples.

Results

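The genes described here are 45 markers of neurons, the oligodendrocyte lineage, astrocytes, choroid plexus and blood vessels, the other cells from which RNA can be carried into a preparation of brain microglia. They were taken as a fixed list and matched to probe sets that carry 1 gene symbol. Of the 45, 43 were matched, each to 1 probe set, among 17629 named genes. Pdgfra, the receptor of oligodendrocyte precursors, was on a probe set with several symbols, and Enpp2, a secreted enzyme of choroid plexus, was not analysed here. Male C57BL/6J mice given OVA formed the allergy group and those given PBS the controls, and whole brains were used to isolate microglia on the day following the intranasal challenge, at an age of 30 days (P30) or 70 days (P70). Microglia of 4 samples were pooled within each of the 4 groups, which are PBS and OVA at either age, and each pool was hybridised to 1 expression array. No spread within a group can be measured with 1 array, so no test was possible, every difference is between 2 arrays, and the number of arrays limits the precision.

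Microglia are the resident macrophages of the brain, and their isolation from dissociated tissue can leave behind fragments, free RNA or whole cells of their neighbours. Neurons are known by synaptic and cytoskeletal genes, oligodendrocytes by myelin proteins, and astrocytes by glutamate transporters and intermediate filaments. The choroid plexus, the epithelium that makes cerebrospinal fluid, is known for very strong expression of Ttr, which encodes the thyroid hormone carrier transthyretin. Brain vessels are lined by endothelial cells joined by tight junctions and wrapped by pericytes and smooth muscle. In a pool of cells, more cells of a type and more RNA per cell cannot be told apart.

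Levels are given as log2 of the deposited intensity, and differences as differences of these log2 levels. The level of the median gene, 7.18, was used as a mark: it is the median over the 17629 genes of their mean over the 4 arrays. As a second mark, chosen after the values were seen, 1526 olfactory and vomeronasal receptor genes, which are not expected in these cells, had a median of 6.36 and a 95th percentile of 8.49. Probe sets differ in how they respond to RNA, so neither mark is a detection limit, and the deposited values carry no detection call. No listed value was 0; the lowest intensities on the arrays were between 8.35 and 9.82. A gene was counted as apart between 2 arrays at a difference of at least 1.5-fold, which is 0.585 in log2.

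As a check of the labelled cells, all 14 matched genes of a list of 15 microglial genes lay above both marks on average. Their summed intensity was 691552 (PBS) and 622676 (OVA) at P30, and 836298 and 870928 at P70. That of 10 neutrophil markers was 70199 and 22629 at P30, and 885946 and 753341 at P70. The neutrophil sums at P70 were thus of a size with the microglial ones. The purinergic receptor gene P2ry12 stood at 13.30 with PBS and 13.28 with OVA at P30, then at 15.14 with PBS and 15.65 with OVA at P70. The integrin gene Itgam stood at 13.51, 13.33, 12.89 and 13.34 on the same arrays. Of the 43 matched markers of other brain cells, 33 had a mean below the median gene, 10 were at or above it, and 4 of those 10 were above the 95th percentile of the receptor genes. Those 4 were Slc1a3, Ttr, Ly6c1 and Bsg. Ttr passed this mark through the OVA arrays alone, at 9.32 and 12.02, and was below it with PBS, at 7.45 and 7.90. Slc1a3 was just below it with PBS at P30, at 8.44. Kcne2 and Ndrg2, whose means were not above this mark, passed it on single arrays. Kcne2 did so at P30 with PBS and OVA, at 8.58 and 8.67, and Ndrg2 with OVA at P70, at 8.52.

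**Figure D1:**
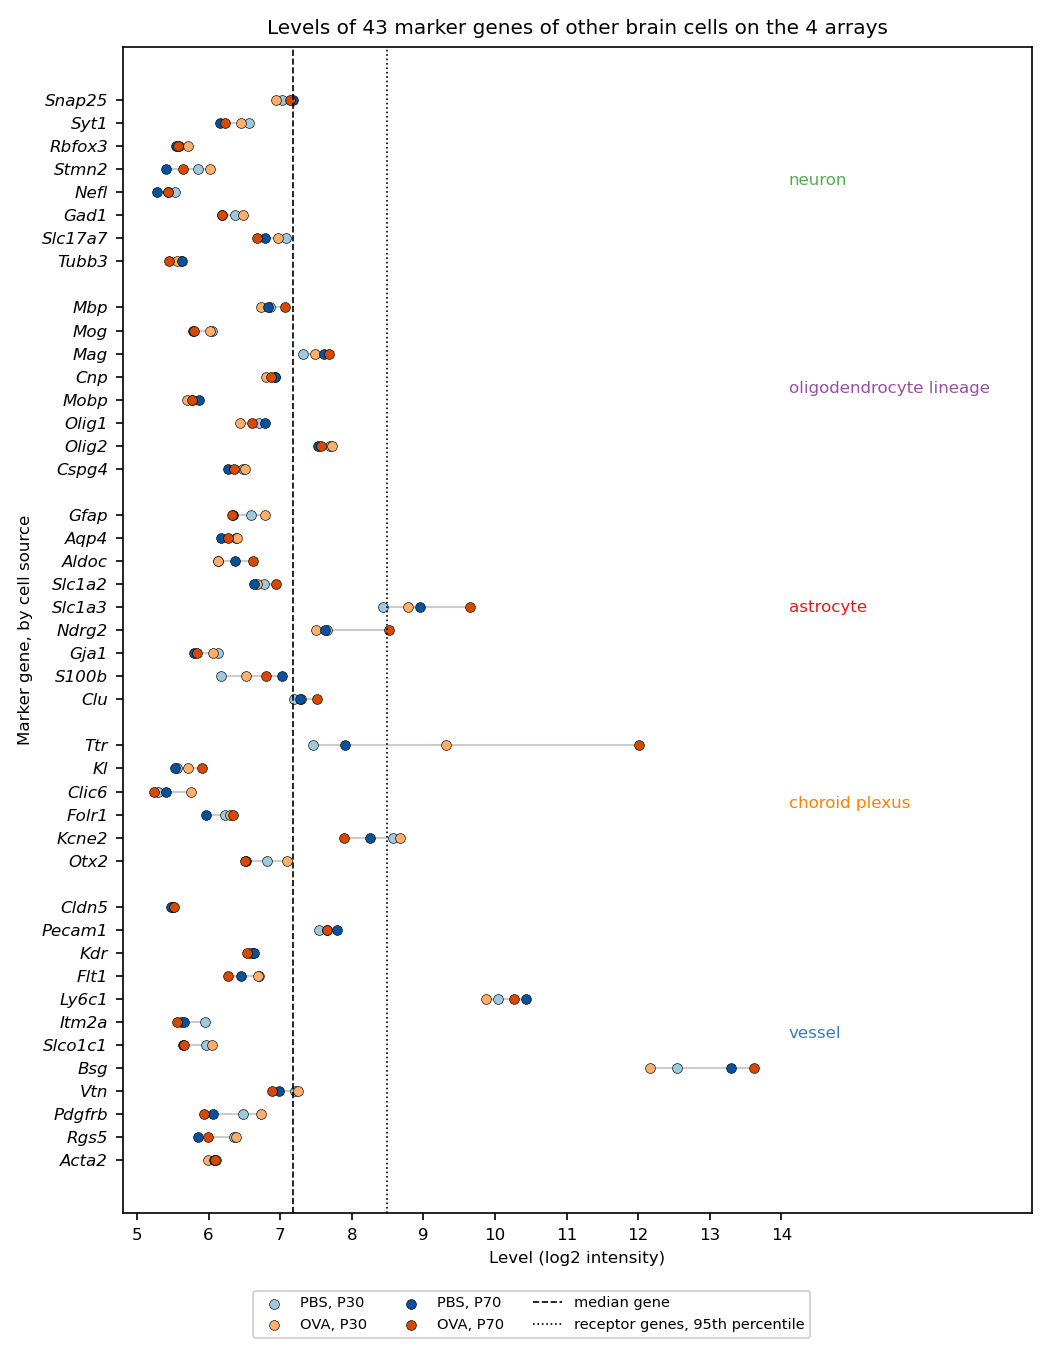
Level (log2 intensity, horizontal axis) of the 43 matched marker genes, each on its own line and grouped by cell source, with 1 point for each of the 4 arrays and a grey line over their range. The dashed line is the median gene (7.18) and the dotted line the 95th percentile of receptor genes (8.49); 33 of the 43 genes have their mean to the left of the dashed line, and Ttr has the widest range of all 43, from 7.45 to 12.02.

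Few of these markers were apart between OVA and PBS. At P30 1 of 43 members was apart, Ttr, which was higher; this is 2.33% of them, where 1.16% of the 17629 genes were apart, 0.556% higher and 0.601% lower. At P70 3 of 43 were apart, Ttr, Ndrg2 and Slc1a3, all higher, which is 6.98% of them, where 3.71% of all genes were apart, 2.48% higher and 1.23% lower. Of the 10 members at or above the median gene, 3 were higher at P70, where 4.00% of genes at that level were. The median OVA minus PBS difference of the 43 members was 0.0094 at P30 and 0.016 at P70. At P30 23 members were above 0 and 20 below, and at P70 25 and 18. At P70 the scaling bears on the split of all genes: 66.8% of those apart were higher as deposited, 52% after quantile normalization and 53.2% after centring along the level. Ttr and Ndrg2 stayed past 1.5-fold under both, and Slc1a3 stood at 0.49 and 0.57, short of it.

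**Figure D2:**
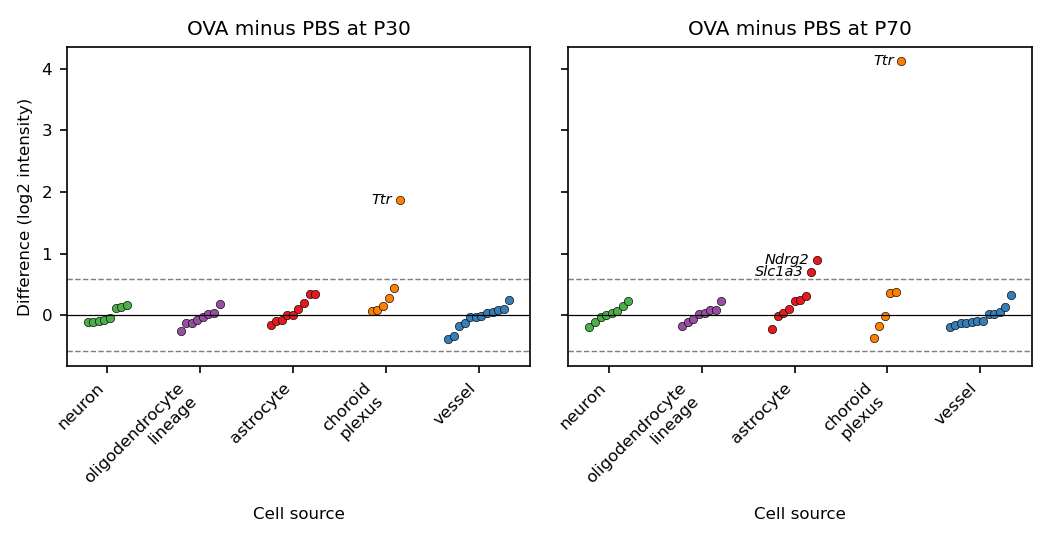
OVA minus PBS difference (log2 intensity, vertical axis) at P30 (left) and P70 (right) for the 43 matched markers by cell source, 1 point per gene in rising order within a source; dashed lines mark 1.5-fold. Ttr is the 1 gene past the line at P30 (1.87), and Ttr (4.12), Ndrg2 (0.89) and Slc1a3 (0.70) are the 3 past it at P70.

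Between the ages, the share of members apart was below that of all genes. In PBS 2 of 43 members were apart between P70 and P30, both higher, which is 4.65% of them, where 19.3% of all genes were apart, 15.1% higher and 4.17% lower. In OVA 7 were apart, 4 higher and 3 lower, which is 16.3% of them, where 27.5% of all genes were apart, 20.1% higher and 7.37% lower. Of the 10 members at or above the median gene, 1 was apart in PBS, where 32.0% of genes at that level were, and 5 were apart in OVA, where 43.0% were. Of the 33 members below the median gene, 1 was apart in PBS and 2 in OVA. Of the 8814 genes below it, 97 were higher and 477 lower in PBS, and 145 and 913 in OVA. Dim genes were thus less often apart, so the shares of all genes are not a like reference for the mostly dim members.

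Neuronal markers were dim on all 4 arrays and none of them was apart in any comparison. Dim genes were rarely apart: of the 8814 genes below the median gene, 40 were higher and 29 lower in OVA at P30. At P70 84 of those genes were higher and 107 lower. A count of none among 8 dim genes is thus not particular to neuronal genes. The 8 genes were Snap25 and Syt1 of synaptic vesicle release, Rbfox3, the nuclear antigen NeuN, the cytoskeletal genes Stmn2, Nefl and Tubb3, Gad1 of inhibitory neurons and Slc17a7, the vesicular glutamate transporter of excitatory neurons. All 8 means lay below the median gene, between 5.42 for Nefl and 7.07 for Snap25. Snap25 stood at 7.02 with PBS and 6.95 with OVA at P30, then at 7.18 with PBS and 7.14 with OVA at P70. The OVA arrays thus lay just under the PBS arrays at both ages. The median OVA minus PBS difference of the 8 genes was -0.06 at P30 and 0.021 at P70, and their summed intensity was 643 and 634 at P30 and 576 and 576 at P70, in PBS and OVA. Of 16 further neuronal markers, 14 were matched and 1 reached the median gene: Camk2a, a kinase subunit of excitatory synapses, at 7.93, 8.07, 7.81 and 7.72. None of these 14 was apart in either OVA comparison.

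Markers of the oligodendrocyte lineage showed no member apart in any comparison either. As most of them were dim, this too is not particular to the lineage. Myelin genes are among the strongest transcripts of adult brain tissue. Mbp, the myelin basic protein, had levels of 6.86 with PBS and 6.73 with OVA at P30, then of 6.83 with PBS and 7.07 with OVA at P70. All 4 values lay below the median gene, and OVA minus PBS was -0.13 at P30 and 0.24 at P70. Mog, Cnp and Mobp, which encode further myelin proteins, and Olig1 and Cspg4, a transcription factor and a proteoglycan of precursors, also had means below the median gene, from 5.77 for Mobp to 6.88 for Cnp.

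The other two genes of this group were above the median gene but not above the 95th percentile of the receptor genes. Mag, an adhesion protein of myelin, stood at 7.31 with PBS and 7.49 with OVA at P30, then at 7.61 with PBS and 7.69 with OVA at P70. Both P70 arrays were higher than both P30 arrays, by less than 1.5-fold. The lineage transcription factor Olig2 stood at 7.69, 7.73, 7.52 and 7.56 in the same order, a range of 0.21. Of 16 further genes of this lineage, 15 were matched, 1 reached the median gene, and none was apart in an OVA comparison. That gene was Gpr17, a receptor of differentiating precursors, with OVA minus PBS differences of -0.11 at P30 and -0.08 at P70.

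Astrocyte markers held 2 of the 3 members that were apart between OVA and PBS at P70. Slc1a3, the glutamate transporter GLAST, stood at 8.44 with PBS and 8.78 with OVA at P30, then at 8.95 with PBS and 9.65 with OVA at P70. It was lowest in the P30 control and highest in the P70 allergy group, 1.26-fold higher in OVA at P30 and 1.63-fold higher at P70. Ndrg2, a stress-responsive cytosolic protein abundant in astrocytes, stood at 7.66 with PBS and 7.50 with OVA at P30, then at 7.62 with PBS and 8.52 with OVA at P70. The P30 OVA array was the lowest, at -0.16 from its control, and the P70 OVA array was 1.86-fold above its control.

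The remaining astrocyte genes were dim or close to the median gene. Clu, which encodes the secreted chaperone clusterin and is expressed by several cell types, stood at 7.19, 7.29, 7.28 and 7.52 with PBS and with OVA, first at P30 and then at P70. S100b, a calcium-binding protein, stood at 6.17 with PBS and 6.52 with OVA at P30, then at 7.02 with PBS and 6.80 with OVA at P70, below the median gene throughout. Its OVA array was the higher of the pair at P30 and the lower at P70, neither by 1.5-fold. The intermediate filament gene Gfap, the water channel gene Aqp4, the gap junction gene Gja1, the glycolytic gene Aldoc and the glutamate transporter gene Slc1a2 had means from 5.95 for Gja1 to 6.76 for Slc1a2. Slc1a2, which acts beside Slc1a3 in glutamate uptake, differed between OVA and PBS by -0.09 at P30 and 0.31 at P70. Gfap differed by 0.19 and -0.02, and Aqp4 by 0.01 and 0.10.

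Over the 9 astrocyte genes the median OVA minus PBS difference was 0.0094 at P30 and 0.24 at P70, where that of all genes was 0.0094 and 0.0062. Their summed intensity was 1197 with PBS and 1302 with OVA at P30 and 1367 with PBS and 1901 with OVA at P70. Slc1a3 and Ndrg2 made up most of the P70 difference: the other 7 genes summed to 647 (PBS) and 682 (OVA) at P30 and to 676 and 730 at P70, with a median difference of 0.10 at P70. The median at P70 was also 0.10 without the members that other cells express. Of 16 further astrocyte markers, 14 were matched and 2 reached the median gene. Sparcl1, a secreted matrix protein made by astrocytes and also by vessels, stood at 6.61 with PBS and 6.57 with OVA at P30, then at 7.43 with PBS and 8.15 with OVA at P70, 1.65-fold higher in OVA at P70. Its mean of 7.19 was just above the median gene, reached through the P70 arrays alone, with most of the excess on the OVA array. The neurotensin receptor gene Ntsr2 differed by -0.03 at P30 and -0.05 at P70. Sparcl1 was the 1 of the 14 that was apart in an OVA comparison, and the median of the 14 was 0.066 at P70. Of 10 markers of macrophages at the brain's borders, 5 were at least 1.5-fold higher in OVA at P70 and none at P30. Of all genes, 2.48% were higher at P70 and 0.556% at P30. The 5 included Clec10a, just past the limit at 0.595. The summed intensity of the 10 border macrophage markers was 3483 with PBS and 8292 with OVA at P70. Their part in the levels of Slc1a3, Ndrg2 and Ttr was not tested.

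Among the astrocyte members, 3 were apart in any comparison, and they differ in where. Slc1a3 and Ndrg2 were apart between OVA and PBS at P70 and between the ages in OVA. S100b was apart between the ages in PBS alone. The stretches before their start sites are shown for this reason. Each is the 250 bases before the start site on the strand of the gene, 5′ to 3′, from RefSeq on GRCm38.p6; capitals mark TTGGC or its reverse complement GCCAA, the half-site of nuclear factor I, a family of transcription factors of astrocytes. Both strands were searched. The windows are Slc1a3 at chr15:8710808-8711057 (minus strand), Ndrg2 at chr14:51914005-51914254 (minus strand, the most upstream of 3 listed starts) and S100b at chr10:76253586-76253835 (plus strand).
Slc1a3: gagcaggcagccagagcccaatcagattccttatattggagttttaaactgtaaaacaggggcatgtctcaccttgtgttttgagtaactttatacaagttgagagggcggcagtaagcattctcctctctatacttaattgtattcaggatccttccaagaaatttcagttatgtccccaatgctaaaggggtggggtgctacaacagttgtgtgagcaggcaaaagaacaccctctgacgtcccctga
Ndrg2: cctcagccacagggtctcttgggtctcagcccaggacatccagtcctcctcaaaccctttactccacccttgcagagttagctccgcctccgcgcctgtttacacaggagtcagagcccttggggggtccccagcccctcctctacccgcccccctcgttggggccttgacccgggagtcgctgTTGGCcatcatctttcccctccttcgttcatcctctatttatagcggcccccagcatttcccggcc
S100b: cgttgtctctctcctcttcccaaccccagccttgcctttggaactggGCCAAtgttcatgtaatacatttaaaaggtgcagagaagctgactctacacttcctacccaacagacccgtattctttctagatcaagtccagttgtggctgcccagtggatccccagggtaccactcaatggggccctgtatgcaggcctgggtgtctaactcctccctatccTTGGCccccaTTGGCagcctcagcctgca
The half-site was found 0 times in the Slc1a3 window, 1 time in the Ndrg2 window, starting 66 bases before the start site, and 3 times in the S100b window, starting 203, 29 and 19 bases before it. It was found in 41.5% of the 32851 promoter windows of this length, and in 45.3% of all genes with a window. Among members with a window it was found for 4 of 7 astrocyte, 4 of 5 neuron, 4 of 6 oligodendrocyte lineage, 0 of 3 choroid plexus and 3 of 9 vessel genes, so it was not more frequent among the astrocyte members than among the neuronal ones. TAATCC or GGATTA, the site of Otx factors, was searched in the same way and found for 1 of 3 choroid plexus, 1 of 5 neuron, 0 of 6 oligodendrocyte lineage, 1 of 7 astrocyte and 1 of 9 vessel members with a window, where 7.21% of all genes with one had it. A match describes letters in a window and is not a binding site. Of the 43 members, 30 had a window.

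Ttr was apart in both OVA comparisons, and it was the sole choroid plexus gene that was. It stood at 7.45 with PBS and 9.32 with OVA at P30, then at 7.90 with PBS and 12.02 with OVA at P70, which are intensities of 175, 639, 239 and 4146. Both OVA arrays were above both PBS arrays, and the 2 PBS arrays differed by 0.45. OVA was 3.65-fold higher at P30 and 17.3-fold higher at P70, and the OVA difference was larger at P70 by 2.25 log2 units. After quantile normalization the OVA minus PBS differences of Ttr were 2.21 at P30 and 3.58 at P70, a smaller gap between the ages. After centring along the level they were 1.88 and 3.96.

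None of the other 5 choroid plexus members was apart in an OVA comparison. Kcne2, a potassium channel subunit at the surface of the epithelium, stood at 8.58 with PBS and 8.67 with OVA at P30, then at 8.26 with PBS and 7.89 with OVA at P70. Its lowest value was on the array where Ttr was highest, and its OVA minus PBS difference was 0.09 at P30 and -0.37 at P70. Kl, the anti-ageing factor klotho, stood at 5.56, 5.71, 5.54 and 5.91 with PBS and with OVA, first at P30 and then at P70. Folr1, the folate receptor that carries folate into cerebrospinal fluid, stood at 6.23, 6.29, 5.97 and 6.34. In Kl and Folr1, too, both OVA arrays were above both PBS arrays and the difference was larger at P70, at 0.37 in each, within 1.5-fold and from levels below the median gene.

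Clic6, a chloride channel family member, stood at 5.30 with PBS and 5.75 with OVA at P30, then at 5.41 with PBS and 5.23 with OVA at P70. Otx2, the transcription factor that the choroid plexus needs to form, stood at 6.82 with PBS and 7.10 with OVA at P30, then at 6.52 with PBS and 6.51 with OVA at P70. Both were higher in OVA at P30 and not at P70, all within 1.5-fold. Without Ttr, the summed intensity of the other 5 genes was 658 with PBS and 728 with OVA at P30 and 549 with PBS and 507 with OVA at P70, and their median OVA minus PBS difference was 0.15 and -0.014. The lower sum in OVA at P70 came from Kcne2: without it the other 4 genes summed to 275 (PBS) and 321 (OVA) at P30 and to 243 and 269 at P70. Of 16 further choroid plexus markers, 15 were matched, none had a mean at the median gene, and none was apart in an OVA comparison. Their summed intensity was 1570 (PBS) and 1575 (OVA) at P30 and 1380 and 1481 at P70. Their median difference was -0.003 at P30 and 0.13 at P70, led by the secreted peptide gene Ecrg4 (0.48) and the potassium channel gene Kcnj13 (0.38), named after their values were seen. Of 10 ependymal markers, 9 were matched and all had means below the median gene, with a median of 0.11 at P30 and -0.15 at P70.

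**Figure D3:**
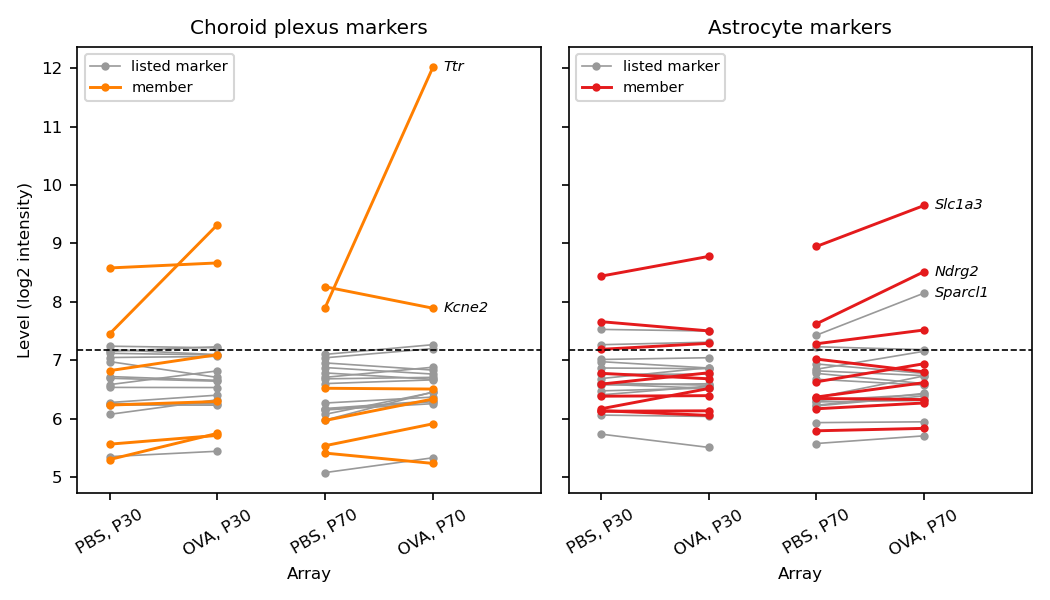
Levels (log2 intensity) of choroid plexus markers (left) and astrocyte markers (right) on the 4 arrays, with 1 line per gene joining PBS to OVA at the same age; coloured lines are the members, grey lines the further markers, and the dashed line is the median gene. On the left Ttr stands above the other members in OVA, at 9.32 at P30 and 12.02 at P70, while Kcne2 is at 7.89 in OVA at P70; on the right Slc1a3, Ndrg2 and Sparcl1 are higher in OVA at P70.

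None of the 12 vessel members was apart between OVA and PBS at either age. Of all genes, 1.16% were apart at P30 and 3.71% at P70, so a count of none among 12 is near that share. Cldn5, the tight junction protein of brain endothelium, stood at 5.51 with PBS and 5.50 with OVA at P30, then at 5.47 with PBS and 5.52 with OVA at P70, a range of 0.046. It had the lowest mean of the 12 vessel genes, 5.50. On all 4 arrays it lay far below the median gene, as did Itm2a, Slco1c1 and Acta2. The endothelial growth factor receptor genes Kdr and Flt1 had means of 6.59 and 6.53, the thyroid hormone transporter gene Slco1c1 5.83 and Itm2a 5.70. The mural genes had means of 7.08 for Vtn, 6.30 for Pdgfrb, 6.15 for Rgs5 and 6.07 for Acta2. Over all 12 genes the median OVA minus PBS difference was -0.02 at P30 and -0.096 at P70.

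The 3 vessel members above the median gene are also known from other cells. Pecam1, an adhesion molecule of endothelium, platelets and leukocytes, stood at 7.54, 7.65, 7.79 and 7.66 with PBS and with OVA, first at P30 and then at P70. Ly6c1, a surface protein of brain endothelium, stood at 10.04 with PBS and 9.87 with OVA at P30, then at 10.43 with PBS and 10.27 with OVA at P70. Its OVA minus PBS difference was -0.17 at P30 and -0.16 at P70. Its close copy Ly6c2, a marker of monocytes, stood at 9.78 and 10.03 at P30 and at 14.14 and 14.19 at P70, so its age difference in PBS was 4.37 where that of Ly6c1 was 0.39. The age difference of Ly6c1 turned to -0.35 after quantile normalization and -0.28 after centring along the level, and in OVA from 0.40 to -0.51 and -0.45. The copies are near-identical and their signals are uncertain.

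Bsg, which encodes the glycoprotein basigin of the blood-brain barrier and is expressed by many cell types, stood at 12.55 with PBS and 12.17 with OVA at P30, then at 13.29 with PBS and 13.62 with OVA at P70. OVA minus PBS was -0.38 at P30 and 0.33 at P70, neither reaching 1.5-fold. Of 20 further vessel markers, all were matched and 2 reached the median gene: the glucose transporter gene Slc2a1, at 8.95, 8.75, 9.21 and 9.26, and the efflux pump gene Abcb1a, at 7.26, 7.34, 7.41 and 7.29. In OVA at P70, 1 of the 20 was at least 1.5-fold lower, where 1.23% of all genes were. This was the smooth muscle gene Tagln, at 6.89 in PBS and 6.26 in OVA, named after its value was seen. Its mean of 6.70 was below the median gene. The median of the 20 was 0.024 at P30 and -0.15 at P70. Leptomeningeal fibroblast markers had 12 of 12 matched, 1 at the median gene (Col1a1, a collagen chain, with differences of 0.07 and -0.0057) and none apart in an OVA comparison.

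The members apart between P70 and P30 in PBS were S100b (0.85) and Bsg (0.74), both higher at P70. In OVA Ttr (2.70), Bsg (1.45), Ndrg2 (1.02) and Slc1a3 (0.87) were higher at P70, and Pdgfrb (-0.80), Kcne2 (-0.78) and Otx2 (-0.59) were lower. These comparisons share their arrays with the OVA comparisons, so the Ttr, Ndrg2 and Slc1a3 values rest on the same P70 OVA array. In PBS the same 3 genes differed between the ages by 0.45, -0.04 and 0.51. The pericyte receptor gene Pdgfrb stood at 6.48 with PBS and 6.73 with OVA at P30, then at 6.06 with PBS and 5.93 with OVA at P70, lower at the later age in both treatments and below the median gene throughout. Markers of blood cells moved with age too: 8 of 10 neutrophil markers were at least 1.5-fold higher at P70 in either treatment, and 5 of 8 monocyte markers in PBS and 7 in OVA. Of all genes, 15.1% were higher at P70 in PBS and 20.1% in OVA. The summed intensity of the neutrophil markers was 70199 (PBS) and 22629 (OVA) at P30 against 885946 and 753341 at P70. Their part in the levels of the members was not tested.

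Age differences depended on the level across all genes. Genes below the median gene had a median P70 minus P30 difference of -0.16 in PBS and -0.25 in OVA, genes at or above it 0.26 and 0.39, and the receptor genes -0.51 and -0.64. The 33 dim members had medians of -0.22 in PBS and -0.13 in OVA, and 24 and 21 of them were lower at P70. Among all genes with a mean between 12 and 13, the level of Bsg, the median was 1.05 in PBS and 1.29 in OVA, beside 0.74 and 1.45 for Bsg itself. After quantile normalization Bsg stood at -0.22 in PBS and 0.23 in OVA, and after centring along the level at -0.24 and 0.27, so its direction in PBS turned. Under either of these scalings the members apart in OVA numbered 3 higher and 1 lower, in place of 4 and 3. The 3 were Ttr, Ndrg2 and Aldoc, the last at 0.74 and 0.755 after them against 0.48 as deposited, and the 1 was Kcne2, at -1.14 and -1.10. Slc1a3 stood at 0.20 and 0.24, Pdgfrb at -0.53 and -0.52, and Otx2 at -0.39 and -0.38, all short of 1.5-fold. In PBS S100b was apart under both (1.00 and 1.02), and Kcne2 was lower, at -0.64, after quantile normalization. With an offset of 64 added before log2, S100b stood at 0.51 in PBS, short of 1.5-fold. Of all genes apart between the ages, 78.3% in PBS and 73.2% in OVA were higher at P70 as deposited, 52.7% and 51.9% after quantile normalization, and 56.7% and 55.8% after centring along the level.

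**Figure D4:**
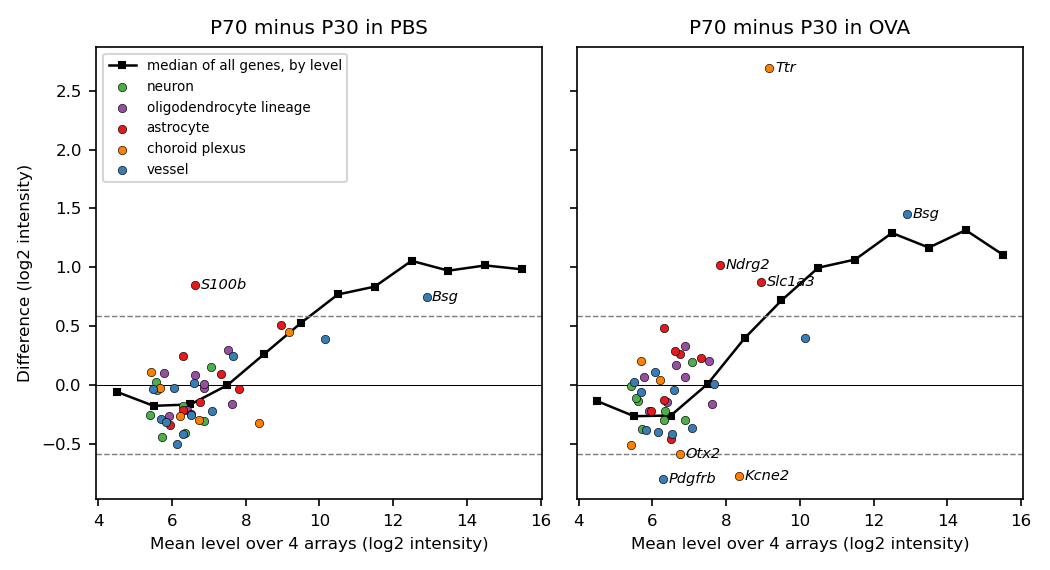
P70 minus P30 difference (log2 intensity, vertical axis) in PBS (left) and OVA (right) against the mean level over the 4 arrays (log2 intensity), 1 point per marker coloured by cell source; the black line joins the median of all genes in bins of 1 log2 unit of level and dashed lines mark 1.5-fold. The black line runs from -0.17 in PBS and -0.26 in OVA at levels of 6 to 7 up to 1.05 and 1.29 at levels of 12 to 13, and Bsg lies below it in PBS and above it in OVA, while Ttr (2.70 in OVA) lies above it and Kcne2 (-0.78 in OVA) below it.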

How the data were processed

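Microglial RNA of 4 groups was measured on 1 array each. The authors deposited 1 linear intensity for each probe set and array. RMA and Affymetrix Expression Console 1.4.1 are listed, without a role, in the submitters' processing notes. The scaling between arrays and the genome build are not given in the sources used here. RMA writes log2 values, whereas these ran from 8.35 to 999952, so log2 was taken here with no further normalization (Python 3.11.15, numpy 2.4.6, pandas 2.3.3). Of 65956 probe sets, 30604 carried 1 symbol in the platform annotation, 2146 several and 33206 none here; 827 symbols were updated through a RefSeq gene table of GRCm38.p6, used for names. Leaving out predicted genes, Riken clone names, small RNAs, sensory receptor families and segments of antigen receptors removed 12738 probe sets, and a gene was represented by its brightest probe set; 193 of 17629 genes had more than 1. The highest member value, 13.62, lay far below the lowest array maximum, 19.74.

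All members were accounted for; per-array values were given for the 13 members that reached the median gene or were apart in a comparison, and for others where the text turns on them, chosen after their values were seen. Of each further marker list, up to 2 genes at or above the median gene with the largest OVA difference at P70 were named. The members and lists were chosen with earlier results of these data known. Counting and scaling were tested on simulated data. Alternatives were median centring, quantile normalization, lowess centring along the level (statsmodels 0.14.6, fraction 0.3), the mean of probe sets, an offset of 64, a filter at the median gene, fewer members and a 2-fold limit. The olfactory and vomeronasal receptor mark, the choroid plexus group without Ttr or without Ttr and Kcne2, and the astrocyte group without Slc1a3 and Ndrg2 were added after the data were seen.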

Additional observations from a re-analysis of the deposited data

Results flagged for a closer look

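3 members had OVA minus PBS differences of opposite sign at the 2 ages that lay at least 1.5-fold from each other; with 1 array per group the difference between the ages was not tested. Ndrg2 differed by -0.16 at P30 and 0.89 at P70, a change of 1.05 between the ages. Bsg differed by -0.38 and 0.33, a change of 0.70; after quantile normalization the change was 0.45 and after lowess centring 0.47, short of 1.5-fold. Clic6 differed by 0.45 and -0.18, a change of -0.63, at levels below the median gene on all 4 arrays; it was -0.55 under both of these scalings and -0.26 with an offset of 64, short of 1.5-fold. The change of Ndrg2 was 0.91, 1.00 and 0.84 under the same 3 settings.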

How the results depend on the processing

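No paired analysis was possible because each group has 1 array, so the groups share a single replicate number. The count of members apart between OVA and PBS at P30 was 1 (Ttr) under all 8 alternatives. At P70 it was 2 or 3 under the others and 1, higher, at 2-fold. For P70 minus P30 in PBS (2 higher, none lower) the count was 1, higher, after lowess centring, with the offset of 64, with the filter at the median gene and without the members that other cells express; it was 1 higher and 1 lower after quantile normalization and 0 at 2-fold. For P70 minus P30 in OVA (7, with 3 lower) it was 4, with 1 lower, after quantile normalization and after lowess centring; 1 was lower with the offset and with the filter; and it was 3, with 0 lower, at 2-fold. The filter, the smaller member list and the 2-fold limit lower counts by their own construction; for the other settings the cause was not tested. Bsg, P70 minus P30 in PBS, turned from 0.74 to -0.22 after quantile normalization and -0.24 after lowess centring. Of the other differences of named members, under the 4 alternatives that can alter a single gene's difference (the 3 scalings and the offset), 191 kept their side of 1.5-fold, 14 came inside it and 1 went past it. Among differences within 1.5-fold, those of Ly6c1 between the ages changed sign after quantile normalization and lowess centring, as did small ones of Otx2 and Pecam1, and that of Ndrg2 between the ages in PBS did after median centring. Medians of the cell sources stayed within 1.5-fold except 5 under the filter, where the choroid plexus group holds 2 genes and the astrocyte group 3. Taking the mean of probe sets changed no member, since each had 1. Of all genes, 204 were apart in OVA at P30, and 90 with the offset, 135 with the filter and 39 at 2-fold; at P70 it was 654, and 375 after quantile normalization, 334 with the offset and 71 at 2-fold. Between the ages in PBS it was 3397, and 2201 after lowess centring and 1330 at 2-fold; in OVA it was 4848, and 2776 after quantile normalization, 2708 after lowess centring and 2027 at 2-fold. Signal over background limits the dim members: 33 of the 43 were below the median gene, and the deposited values carry no detection call.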

Other observations

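The following markers of blood and border cells are not members. The 10 neutrophil markers had a summed intensity of 70199 (PBS) and 22629 (OVA) at P30 and of 885946 and 753341 at P70. At P30, 7 of the 10 were at least 1.5-fold lower in OVA, and at P70 2 were: Retnlg, a resistin-like protein, at -0.85, and the collagenase Mmp8, at -1.46. Of all genes, 0.601% were lower in OVA at P30 and 1.23% at P70. The 8 matched monocyte markers had sums of 2081, 2202, 21770 and 24498 on the same arrays. In OVA at P70, 3 of the 8 were at least 1.5-fold higher, where 2.48% of all genes were, among them S100a4 (1.16) and Treml4 (0.97). Treml4 was above the median gene on the P70 OVA array alone, at 8.05. Of the border macrophage genes, Pf4 differed by -0.39 at P30 and 1.97 at P70, and Ms4a7 by -0.58 and 1.94. Both were highest on the P70 OVA array, where Ttr, Slc1a3 and Ndrg2 also had their highest values. Of the other border macrophage genes, Mrc1, Dab2, Clec10a, Cbr2 and F13a1 were highest there too. Cbr2 (0.41) and F13a1 (0.18) were within 1.5-fold of PBS at P70. Cd163 (7.42) and Lyve1 (7.40) were highest with OVA at P30, and Stab1 (9.43) with PBS at P30. The share of all genes with their highest value on the P70 OVA array was not counted. Among all genes at levels of 8 to 9, the median OVA minus PBS difference at P70 was 0.098. Their median P70 minus P30 difference in OVA was 0.40, so a highest value on that array is not particular to these genes.

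Of 10 erythroid markers, 4 were matched and all 4 had means below the median gene, with a summed intensity of 486 (PBS) and 480 (OVA) at P30 and of 378 and 385 at P70.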
